A study of Homo sapiens with 12 samples.

Results

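The 77 genes described here encode the proteins of the mitochondrial ribosome, as far as their symbols begin with MRPL (large subunit) or MRPS (small subunit) followed by a number and at most 1 letter. Of 78 such rows among the 36601 genes of the table, 77 had a mean normalized count of at least 10 over 12 libraries. The remaining one, MRPL53, had a mean of 1.44 and was not analysed further. The libraries came from KP4, a human pancreatic ductal carcinoma line kept with serum and labelled wild type, treated for 24 h in 4 ways with 3 libraries each. The cells received the vehicle DMSO, 10 mM metformin (Met), 5 nM FK866 (FK) or 10 mM metformin with 5 nM FK866 (Met+FK). Metformin is an antidiabetic biguanide that inhibits complex I of the respiratory chain, and FK866 inhibits NAMPT, the rate-limiting enzyme of NAD+ salvage.

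Mitochondria carry their own ribosome, which translates the few membrane proteins of the respiratory chain and ATP synthase that the mitochondrial genome encodes. Its ribosomal RNAs come from mitochondrial DNA, whereas all its proteins are encoded in the nucleus, made in the cytosol and imported. Some of these proteins descend from bacterial ribosomal proteins and others were added during the evolution of mitochondria.

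By subunit, 50 members belong to the large subunit and 26 to the small one. MRPS36 belongs to neither, since the protein was reassigned to the 2-oxoglutarate dehydrogenase complex. MRPS18A and MRPS30 carry small-subunit names but sit in the large subunit. Of the ribosomal members, 46 are classed as having a bacterial homologue and 30 as specific to mitochondria.

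Each library held between 30667735 and 41052203 counted read pairs. The labelled cell type was checked against marker genes, given as the lowest and highest normalized count over all libraries. The epithelial keratins KRT8 (2217 to 3222) and KRT18 (9398 to 18721) and the ductal factor SOX9 (3405 to 5140) were present. The other ductal markers looked at, KRT7 (209 to 314) and MUC1 (66.1 to 157), were much lower. EPCAM (3.78 to 12.5), KRT19 (14.6 to 75.01) and CDH1 (24.2 to 86.5) were low beside the mesenchymal gene VIM (93661 to 121917). The mesenchymal genes CDH2 (2818 to 3499) and ZEB1 (544 to 1272) were present too. INS, CPA1 and DCN, which mark beta cells, acinar cells and fibroblasts, were at 0 in every library. Other markers of such cells were not at 0, namely COL1A1 (52.0 to 307), the leukocyte gene PTPRC (101.4 to 304) and the macrophage gene CD68 (721 to 1010), and the acinar genes PRSS1 and CELA3A reached 1.65 and 1.045. The libraries differed in how their values depended on the GC content of the transcript. FK replicate 2 stood lowest, with a slope of -0.25 log2 units per 10 GC points, against slopes from -0.14 to 0.20 in the other libraries. For comparisons that use it, the main counts of members that passed the test are given with and without it. Single members, counts of libraries without overlap, shared calls and correlations are given without it only where stated.

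The members were well expressed, with mean normalized counts from 511 to 8070 (median 2003) against a median of 724 over all 15376 genes that met the same minimum. In all, 72 of the 77 lay above that median. Per kb of transcript, the highest mean levels were those of MRPS24 (9181 normalized counts per kb), MRPL51 (8986), MRPS6 (5485), MRPL37 (4730) and MRPL12 (4270). The lowest were those of MRPL42 (164 normalized counts per kb), MRPL50 (208), MRPL19 (354), MRPS11 (375) and MRPS25 (377.4). The value of MRPL42 was divided by a transcript of 15557 bases, the longest among the members. Those of MRPL50, MRPL19, MRPS11 and MRPS25 were divided by 3336, 7825, 3392 and 4572 bases, and those of the 5 highest by 667 to 1483 bases. Proteins of 1 particle, present in equal numbers apart from a few, thus had transcripts at unequal levels per annotated length. Whether the cells made transcripts of these lengths was not tested.

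Members that fell furthest with metformin (MRPL12, MRPL20 and MRPS34) and the 1 that rose (MRPS10) are shown by their promoters, from 80 bases before to 30 after the RefSeq start on GRCh38.p14. Capitals mark CCGGAAG, bound by ETS factors such as GABPA, and AAGATGGC, bound by YY1, on either strand. Both factors are known regulators of nuclear genes for mitochondrial proteins. The stretches are chr17:81703287-81703396 on the plus strand for MRPL12, and chr1:1407264-1407373, chr16:1773105-1773214 and chr6:42217832-42217941 on the minus strand for the others.
MRPL12: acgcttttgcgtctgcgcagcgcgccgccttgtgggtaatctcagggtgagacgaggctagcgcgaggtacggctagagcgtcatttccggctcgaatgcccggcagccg
MRPL20: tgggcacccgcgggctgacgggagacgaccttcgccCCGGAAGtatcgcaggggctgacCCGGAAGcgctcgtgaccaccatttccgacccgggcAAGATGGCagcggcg
MRPS34: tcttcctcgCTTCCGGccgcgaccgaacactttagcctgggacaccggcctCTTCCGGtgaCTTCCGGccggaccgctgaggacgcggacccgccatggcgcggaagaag
MRPS10: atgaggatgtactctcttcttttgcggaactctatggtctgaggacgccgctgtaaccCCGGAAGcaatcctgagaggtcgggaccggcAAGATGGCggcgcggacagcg
MRPL20 holds CCGGAAG with its first base at -44 and at -21 and AAGATGGC at 16, counted from 1 at the start. MRPS34 has 3 matches to CCGGAAG on the opposite strand, at -71, -29 and -19. MRPS10, which rose, holds CCGGAAG at -22 and AAGATGGC at 10, so letters of this kind occurred in members that moved in either direction. No match was found in the 300 bases of MRPL12.

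Promoters of 300 bases, from 250 before to 50 after the start, were found for 68 of the 77 members. CCGGAAG occurred in 28 of them (41.2%), against 18.9% of 10829 promoters of genes tested and 10.7% of all 27305 promoters of the table. AAGATGGC occurred in 20 (29.4%), against 5.30% of promoters of genes tested and 3.03% of all. Of its 21 matches, 15 lay in the first 50 bases after the start, and of 37 matches to CCGGAAG, 22 lay within the 60 bases before it. A loose form of the palindromic NRF1 site, with its central bases free, occurred in 9 of 68 (13.2%) and in 15.8% of promoters of genes tested. The strict form, itself a case of the loose one, occurred in 1 of 68, TGATGNAA, a composite site of ATF4 and C/EBP, in 1, and TCAAGGTCA, a site of ERR receptors, in none (tested genes 2.35%, 1.76% and 0.148%). Among members that metformin lowered, 34.9% of 43 promoters held CCGGAAG, and among the others 52% of 25. For AAGATGGC the shares were 30.2% and 28%. A match is only a run of letters and does not show that a factor binds there.

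The first question was what metformin alone did to these transcripts. With Met, 49 of 77 members fell against DMSO, 1 rose (MRPS10) and 27 did not pass the test (limma on log2 of the normalized count plus 1, adjusted p under 0.05 over all 15376 genes). Over all genes tested, 25.9% were lower and 24.9% higher. The members' log2 fold changes ran from -0.86 to 0.33 with a median of -0.36, and 66 of 77 were negative, while the median over all genes tested was 0.01. In 54 members every Met library lay below every DMSO library (29.4% of all genes) and in 2 above (27.5%). By the study's rule for differentially expressed genes, which also asks for a fold over 1.5, 11 members fell (10.2% of all genes) and 0 rose (12.8%). That count of falls was 7 with libraries scaled to the same total, where 1025 of 15376 genes fell by this rule. It was also 7 with the correction for GC content and length described below, where 1533 of 15324 genes did. Falls of less than 1.5-fold therefore made up most of the calls. In bulk RNA a lower level in every cell and a change in the mix of cells cannot be told apart.

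**Figure D1:**
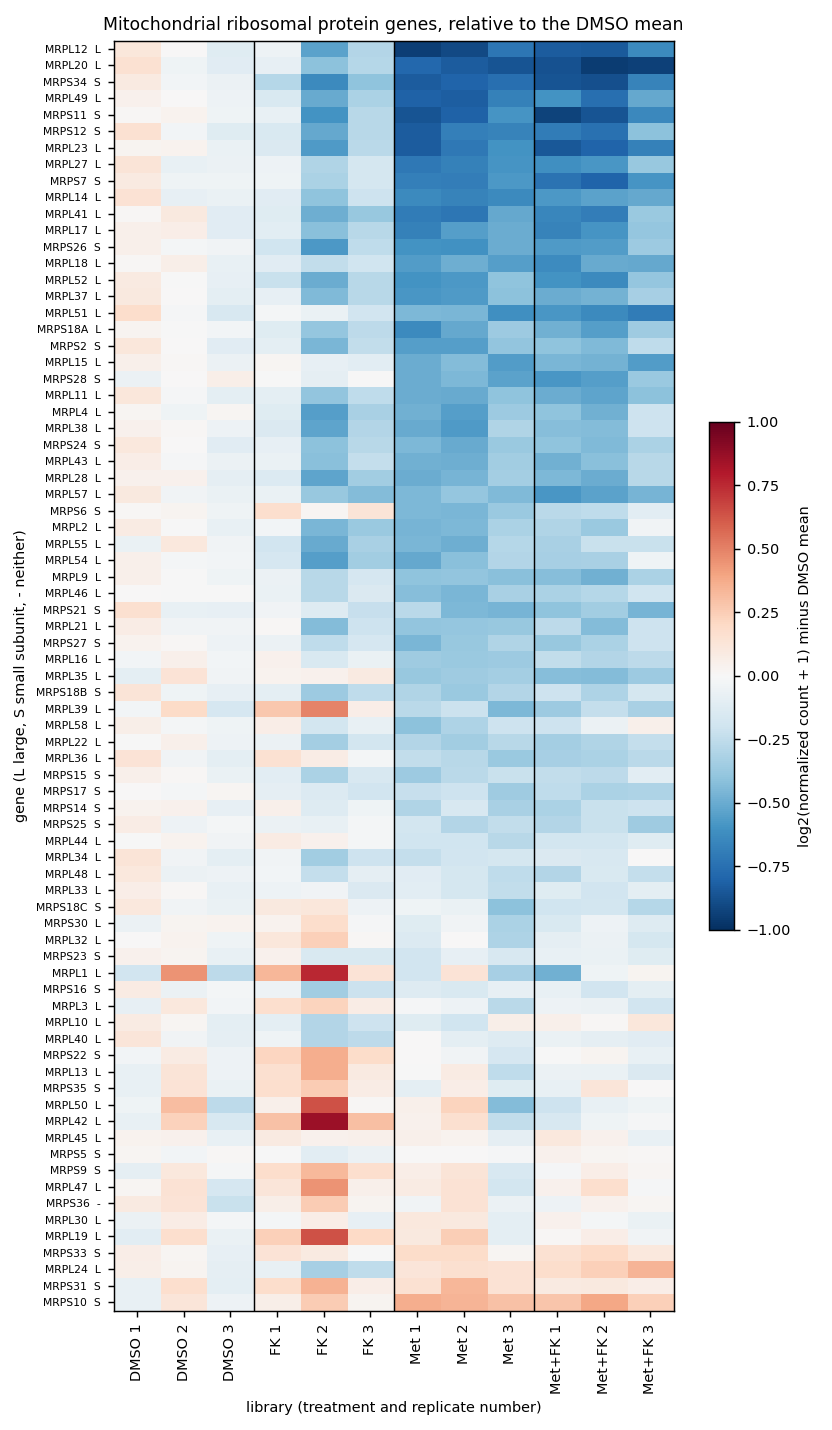
Each row is 1 member and each column 1 library; color gives log2(normalized count + 1) minus the mean of the DMSO libraries, from blue (lower) to red (higher), and rows run from the lowest to the highest log2 fold change of Met against DMSO. Most rows are blue in the 3 Met and 3 Met+FK libraries, and MRPS10, at the bottom, is red in them.

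MRPL12 forms the mobile stalk of the large subunit that contacts translation factors. Its normalized counts were 6294, 5818 and 5349 with DMSO and 3025, 3104 and 3511 with Met, so the groups were far apart. The log2 fold change was -0.86 ± 0.11 (SE, n = 3 and 3, limma, adjusted p = 2.02e-05). MRPL20, a bL20 homologue that binds the large ribosomal RNA, had 3587, 3142 and 2989 normalized counts with DMSO and 1873, 1813 and 1772 with Met. All Met libraries lay below all DMSO libraries, with a log2 fold change of -0.83 ± 0.09 (SE, limma, adjusted p = 4.48e-06). MRPS34, a small-subunit protein with no bacterial homologue, had 2739, 2524 and 2471 normalized counts with DMSO. Its Met libraries stood at 1448, 1476 and 1530, again without overlap, with a log2 fold change of -0.79 ± 0.09 (SE, limma, adjusted p = 8.82e-06). MRPS34 overlaps EME2 on the opposite strand and MRPL20 overlaps MRPL20-AS1, and the strand setting of the counting is not stated, so reads of the partners may be included.

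MRPL49, specific to mitochondria, fell from 4650 ± 152 to 2726 ± 154 normalized counts (mean ± SD, n = 3 each), a log2 fold change of -0.77. MRPS11, of the platform of the small subunit, fell from 1711 ± 46.2 to 1016 ± 105 (-0.76), and MRPS12, which helps to keep decoding accurate, from 2192 ± 216 to 1321 ± 78.8 (-0.73). The other members past the rule with fold were MRPL23 (log2 fold change -0.72), which lies at the exit of the peptide tunnel, MRPL27 (-0.66), near the peptidyl transferase centre, and MRPS7 (-0.65), which binds the small ribosomal RNA. MRPL14 (-0.65), on the surface that faces the small subunit, and MRPL41 (-0.65) completed the 11. MRPL17 followed with -0.57. These 12 members spanned the stalk, tunnel, catalytic and decoding regions, and in each of them all Met libraries were below all DMSO libraries. Each kept its call in all 6 fits that left out 1 library.

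MRPS10, of the head of the small subunit, had 2727, 3117 and 2776 normalized counts with DMSO and 3691, 3632 and 3506 with Met. The groups did not overlap, and the log2 fold change was 0.33 ± 0.08 (SE, limma, adjusted p = 0.00327). No other member rose in this test. MRPL24, a homologue of a protein that starts large-subunit assembly in bacteria, had a log2 fold change of 0.14 (adjusted p = 0.15), with 2791 to 3091 normalized counts in DMSO and 3230 to 3308 in Met. The levels did not overlap, yet the difference did not pass the test, although it did with libraries scaled to the same total (adjusted p = 0.0085).

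**Figure D2:**
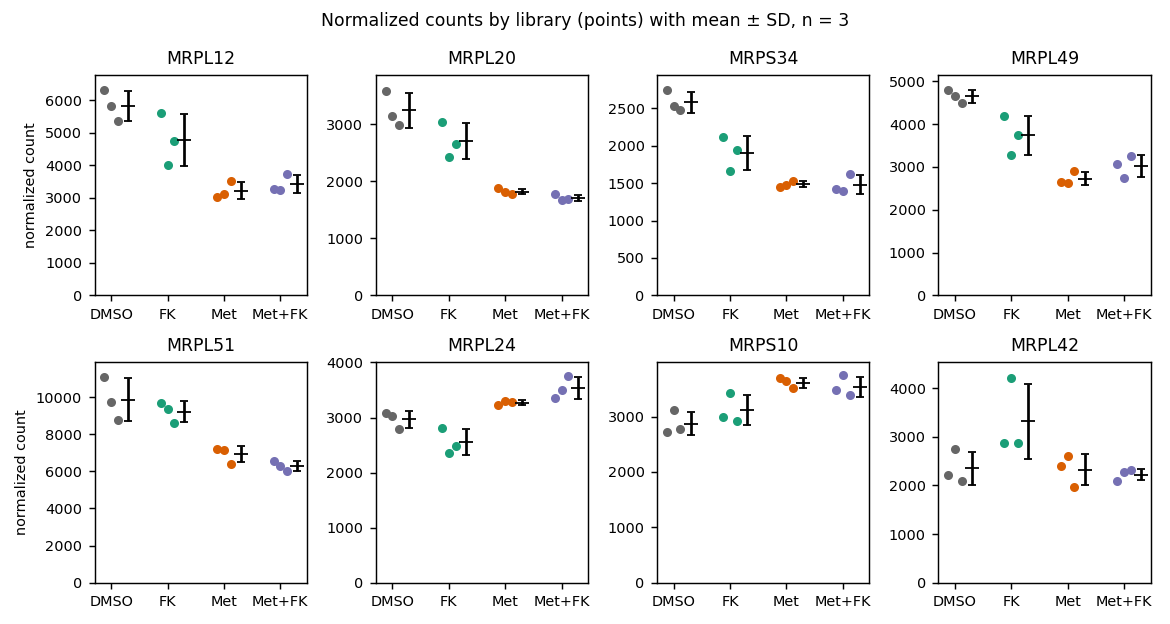
Points are the normalized counts of single libraries by treatment for 8 members, and the bars beside them the mean ± SD (n = 3), with every vertical axis starting at 0. MRPL12, MRPL20, MRPS34, MRPL49 and MRPL51 are lower in Met and Met+FK than in DMSO, MRPS10 is higher, MRPL24 is highest in Met+FK and MRPL42 is highest in FK.

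Falls were found in both subunits. In the large subunit 33 of 50 members fell and 0 rose (median log2 fold change -0.39), and in the small subunit 16 of 26 fell and 1 rose (-0.27). Of members with a bacterial homologue 30 of 46 fell (median -0.37), and of those specific to mitochondria 19 of 30 (-0.32). The 3 paralogs of bacterial protein S18 sit at different places in the particle. Of these, MRPS18A and MRPS18B were classed as specific to mitochondria in the counts above, and MRPS18C as having a bacterial homologue. MRPS18A, in the large subunit, fell by 0.50 on the log2 scale (adjusted p = 0.00039), and MRPS18B fell by 0.32 (adjusted p = 0.0062). MRPS18C had a value of -0.17 (adjusted p = 0.17). MRPS30 had a log2 fold change of -0.16 (adjusted p = 0.12), and MRPS36, which is no ribosomal protein, one of 0.01 (adjusted p = 0.92), with 426 to 549 normalized counts in DMSO and 477 to 551 in Met.

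Reads can be shared with neighbours or copies. Another gene overlaps 39 members, of which 26 fell, as did 23 of the 38 that overlap none. GENCODE 44 names a pseudogene for 35 members, of which 18 fell, as did 31 of the 42 without one. Falls were thus less frequent among members that overlap no gene and more frequent among those with no named pseudogene, and neither difference was tested. Of the 12 members named above, MRPS34, MRPL20, MRPL49, MRPS12, MRPL23, MRPS7 and MRPL14 overlap a gene on the opposite strand.

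GC content moved with the size of the change. Across the 77 members, the log2 fold change of Met against DMSO had a Pearson correlation of -0.67 with the GC content of the transcript (Spearman -0.69), while over all genes with a GC value it was -0.29. Of the 38 members above the median GC content (48.0%), 34 fell, with a median of -0.45, and of the 39 at or below it 15 fell and 1 rose, with a median of -0.15. After each library was corrected for its dependence on GC content and transcript length, 64 members were lower and 2 higher (32.5% and 24.8% of all genes), with a median of -0.31 against -0.04 over all genes, and the groups above and below the median GC content held 34 and 30 of the falls. The members' fall was thus present at both high and low GC content once each library was corrected for it. Scaling all libraries to the same total raised the median of all genes from 0.01 to 0.13 and left 41 members lower and 4 higher (19.0% and 34.1% of all genes), with a member median of -0.24.

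**Figure D3:**
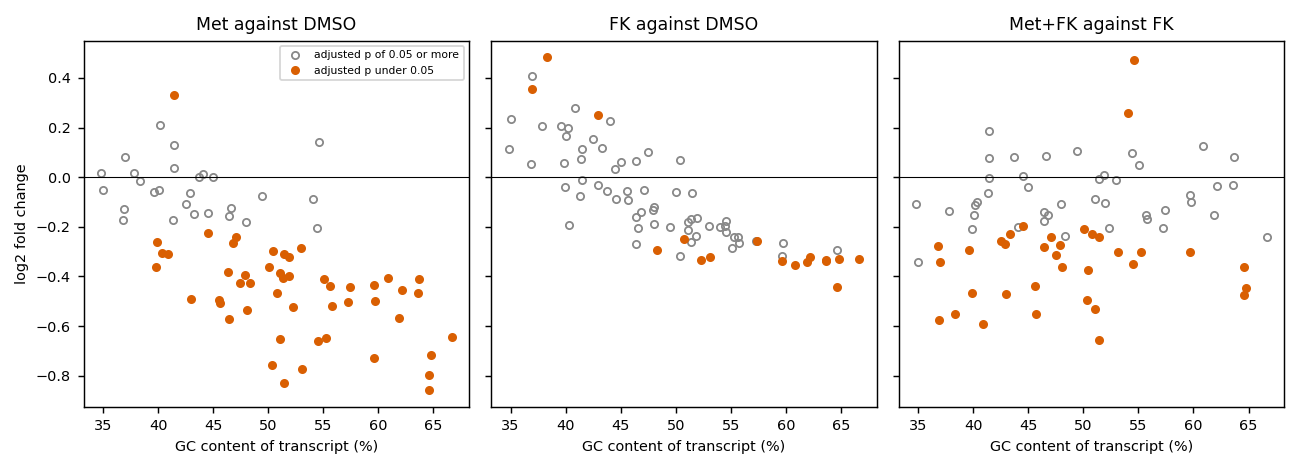
Points are the 77 members, with the GC content of the transcript (%) on the horizontal axis and the log2 fold change of 3 comparisons on the vertical axis; filled orange points passed the test (adjusted p under 0.05). Values fall with GC content in Met against DMSO (r = -0.67) and more closely in FK against DMSO (r = -0.83), but not in Met+FK against FK (r = 0.16).

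As a share of all counted read pairs, the 77 members together took 0.604%, 0.613% and 0.578% with DMSO and 0.518%, 0.530% and 0.513% with Met. The shares with FK were 0.597%, 0.551% and 0.556%, and with Met+FK 0.512%, 0.515% and 0.527%. All libraries with metformin therefore lay below all libraries without it in this share, which uses each library's own total. Cytosolic ribosomal protein genes were chosen by symbol, 82 of them were tested, and most encode parts of the ribosome outside mitochondria. All genes with such a symbol, tested or not, together took 5.73% to 6.29% with DMSO and 6.28% to 6.42% with Met, ranges that overlap. They took 5.23% to 6.07% with FK and 6.57% to 6.64% with Met+FK. The 13 protein genes of the mitochondrial genome, whose mRNAs this ribosome translates, took 3.27% to 4.11% with DMSO and 3.22% to 4.14% with Met. They took 3.59% to 4.51% with FK and 3.57% to 3.76% with Met+FK, also overlapping.

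**Figure D4:**
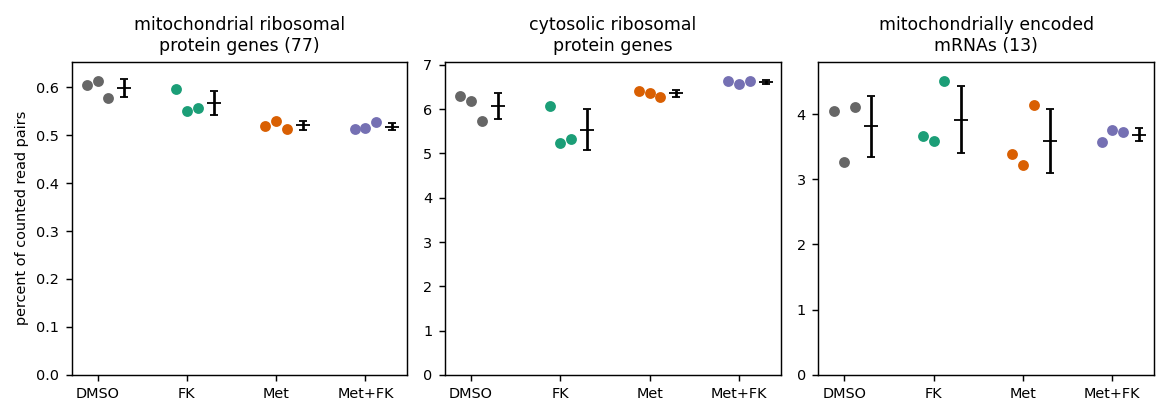
Points give, for each library, the percent of counted read pairs in 3 sets of genes, with mean ± SD (n = 3) beside them and axes that start at 0. The sets are the 77 mitochondrial ribosomal protein genes, the cytosolic ribosomal protein genes (82 of them tested) and the 13 mitochondrially encoded protein genes. In the first panel the 6 libraries with metformin (0.512% to 0.530%) lie below the 6 without it (0.551% to 0.613%).

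The second question was what FK866 did alone. With FK, 14 members fell and 3 rose against DMSO, where 9.84% of all genes were lower and 11.3% higher, and no member passed the rule with fold (0.754% and 2.73% of all genes). All FK libraries lay below all DMSO libraries in 25 members (21.6% of all genes) and above them in 5 (17.2%). The median log2 fold change was -0.16, against -0.02 over all genes tested. The largest fall was that of MRPS34, with 2109, 1660 and 1944 normalized counts with FK, all below its DMSO libraries given above (log2 fold change -0.44 ± 0.09, SE, limma, adjusted p = 0.0156). MRPL54 (-0.36), MRPS26 (-0.34), MRPL55 (-0.34) and MRPL28 (-0.34) followed, each with adjusted p between 0.0337 and 0.0353. The members that rose were MRPL42 (0.48), MRPL19 (0.36) and MRPS22 (0.25). MRPL42 had 2212, 2741 and 2091 normalized counts with DMSO and 2865, 4210 and 2869 with FK (limma, adjusted p = 0.0356). Its highest value came from FK replicate 2, without which its log2 fold change was 0.30 (adjusted p = 0.16). The other members named here also lost their calls without that library, with MRPS34 at -0.35 (adjusted p = 0.059), MRPL19 at 0.22 and MRPS22 at 0.20.

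These calls moved with GC content and with single libraries. All 14 falls were among the 38 members above the median GC content and all 3 rises among the other 39. The correlation of the log2 fold change with GC content was -0.83 over the 77 members (Spearman -0.87) and -0.60 over all genes. With the GC and length trend removed, 8 members were lower and 1 higher (6.83% and 4.25% of all genes, member median -0.08), and MRPL19 and MRPL42 stood at -0.08 and 0.02. Without FK replicate 2, limma called 0 falls and 0 rises (0.397% and 1.14% of all genes). At an unadjusted p under 0.05 there were then 15 members, against 23.5% of all genes. Without DMSO replicate 1 limma likewise called none, with 19 members at an unadjusted p under 0.05, against 27.4% of all genes. Without FK replicate 1, 36 fell and 3 rose (15.2% and 16.9% of all genes). A fit that blocked on the replicate number gave 36 falls and 11 rises (21.3% and 23.3% of all genes), and block and correction together gave 16 and 3 (12.8% and 7.66%). In a fit of the 6 libraries of FK and DMSO alone, limma called none in either direction (0.267% of all genes lower and 0.722% higher). At an unadjusted p under 0.05 there were 32 members, against 35.7% of all genes.

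Adding metformin to FK866 repeats the metformin contrast in libraries that the first comparison did not use. In Met+FK against FK, 33 members fell and 2 rose, where 21.7% of all genes were lower and 20.5% higher. The median log2 fold change was -0.20, against -0.01 over all genes. In 37 members all Met+FK libraries lay below all FK libraries (26% of all genes) and in 3 above (24.9%), and 2 members, MRPL20 and MRPL39, fell by over 1.5-fold (9.29%) and 0 rose by as much (9.27%). Leaving out single libraries moved that count of 2 to between 1 and 5. It was 5 without FK replicate 3, 4 without FK replicate 2 and 1 without Met+FK replicate 1. Without FK replicate 1, Met+FK replicate 2 or Met+FK replicate 3 it was 3. With the same total, with TMM and with the GC correction it was 1. For these settings the shares of all genes past the rule with fold are not given here. MRPL20 had 3044, 2424 and 2656 normalized counts with FK and 1769, 1669 and 1694 with Met+FK, which is a clear separation (log2 fold change -0.66 ± 0.09, SE, limma, adjusted p = 4.13e-05). MRPL39, specific to mitochondria, had 1824, 2140 and 1588 with FK and 1174, 1281 and 1207 with Met+FK (-0.59 ± 0.11, SE, limma, adjusted p = 0.000753).

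MRPL1, which forms the stalk at the exit site for tRNA, followed with -0.58 ± 0.20 (SE, limma, adjusted p = 0.0309). Its normalized counts were 707, 949 and 619 with FK and 401, 545 and 572 with Met+FK, so the nearest libraries were close, and it kept its call in 4 of 6 fits without 1 library but not with libraries scaled to the same total (adjusted p = 0.053). MRPL42 (-0.55) and MRPL51 (-0.55), both specific to mitochondria, kept theirs in all 6. Without FK replicate 2, MRPL42 stood at -0.37 (adjusted p = 0.019) and MRPL1 at -0.40 (adjusted p = 0.11). The members that rose were MRPL24 and MRPL10, which anchors the MRPL12 stalk. MRPL24 had 2816, 2353 and 2489 normalized counts with FK and 3359, 3498 and 3749 with Met+FK, all higher (0.47 ± 0.08, SE, limma, adjusted p = 0.000238). MRPL10 rose by 0.26 ± 0.09 on the log2 scale (SE, limma, adjusted p = 0.024) and kept its call in 2 of 6 such fits, which did not include that without FK replicate 2 (adjusted p = 0.071). MRPS10 had a log2 fold change of 0.18 in this comparison (adjusted p = 0.08).

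Of the 49 members that fell with Met against DMSO, 25 (51.0%) also fell with Met+FK against FK, which is 75.8% of the 33. Over all 77 members, 42.9% fell in the second comparison and 63.6% in the first. Whether the overlap exceeds what these shares alone would give was not tested. The other 8 of the 33 passed in the second comparison and not in the first, which does not show that they differed, since the interaction given below called none. They were MRPL1, MRPL3, MRPL13, MRPL19, MRPL32, MRPL42, MRPS18C and MRPS22. Over the 77 members, which share their libraries, the 2 sets of log2 fold changes were correlated with a Pearson r of 0.48 (Spearman 0.44) and had the same sign in 61, against a correlation of 0.76 over all genes tested. MRPL54 was among those that differed in sign, with a log2 fold change of -0.41 without FK866 and 0.12 with it, the second of which did not pass the test (adjusted p = 0.37). With the GC and length trend removed, 47 members fell and 3 rose in Met+FK against FK (28.5% and 25.8% of all genes, member median -0.17). Without FK replicate 2, 34 fell and 2 rose (20.9% and 20.5% of all genes). Without FK replicate 1, 22 fell (19.8% of all genes), and without Met+FK replicate 1 also 22 (17.6%).

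**Figure D5:**
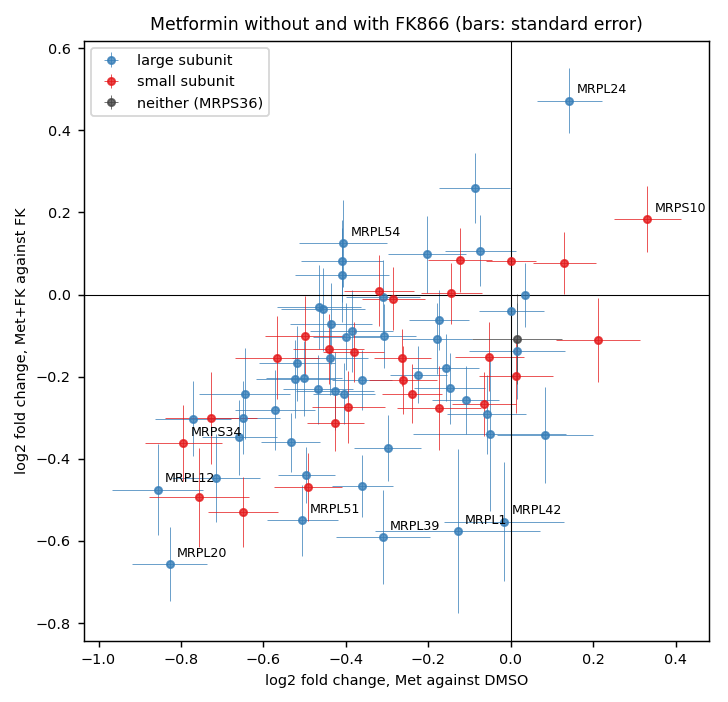
Each point is 1 member, with its log2 fold change of Met against DMSO on the horizontal and of Met+FK against FK on the vertical axis, colored by subunit, with bars of 1 standard error. Most points lie at the lower left, MRPL24 and MRPS10 lie in the upper right, and MRPL42 and MRPL1 lie near 0 on the horizontal axis and below -0.5 on the vertical one.

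Against DMSO, the combination lowered 46 members and raised 2, where 26.1% of all genes were lower and 26.1% higher, with a median log2 fold change of -0.27. In 52 members all Met+FK libraries lay below all DMSO libraries (30.4% of all genes) and in 3 above (30.5%). By the rule with fold 9 fell (11.3% of all genes) and 0 rose (13.7%). MRPL20 (-0.92), MRPS11 (-0.81), MRPS34 (-0.80), MRPL23 (-0.77) and MRPL12 (-0.77) fell furthest. MRPS7 (-0.71), MRPL51 (-0.64), MRPL49 (-0.62) and MRPS12 (-0.62) were the others. MRPL20 with Met+FK, at 1769, 1669 and 1694 normalized counts, lay below its DMSO libraries without overlap (limma, adjusted p = 1.2e-06). MRPS10 rose by 0.30 (adjusted p = 0.00603) and MRPL24 by 0.25 (adjusted p = 0.0151). This comparison shares the DMSO libraries with both that were described first.

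FK866 added to metformin was compared as Met+FK against Met. No member passed the test in either direction (0.0911% of all genes were higher and 0.0065% lower), and edgeR and DESeq2 on the recovered read pairs called none either. At an unadjusted p under 0.05 there were 2 members, against 6.84% of all genes, and the median log2 fold change was 0.02. The Met+FK libraries all lay above the Met libraries in 9 members (7.88% of all genes) and below them in 3 (5.56%). The members with the smallest p were MRPS6 (0.22 ± 0.07, SE, limma, adjusted p = 0.473), MRPL58 (0.24 ± 0.09, SE, limma, adjusted p = 0.598), a peptidyl-tRNA hydrolase that rescues stalled ribosomes, and MRPL10 (0.15 ± 0.09, SE, limma, adjusted p = 0.8). MRPS6 had 4050, 4040 and 4285 normalized counts with Met and 4598, 4656 and 5146 with Met+FK, without overlap between the groups. After removal of the GC and length trend MRPS6 passed (0.24, adjusted p = 0.044). MRPS6 overlaps SLC5A3 on the same strand, so reads of that gene may be included.

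The interaction, which is the effect of metformin with FK866 minus that without it, was tested directly. No member passed (0.0065% of all genes were higher and 0.052% lower), and 31 of 77 had an unadjusted p under 0.05, against 30.5% of all genes. That number of 31 was 19 without FK replicate 2 (18.9% of all genes), 17 without DMSO replicate 1 (19.7%) and 19 without Met replicate 2 (18.4%). It was 16 without Met+FK replicate 3 (19.2%) and 16 with the GC and length correction (17.8%). edgeR called none and DESeq2 called 3 higher (1.71% of all genes). The median interaction was 0.17 on the log2 scale (0.12 without FK replicate 2), with 0.31 for the 38 members above the median GC content and -0.04 for the other 39. The smallest p belonged to MRPL49 (0.47 ± 0.13, SE, limma, adjusted p = 0.11), MRPL54 (0.53), MRPL55 (0.49), MRPS34 (0.43) and MRPL4 (0.44), all with adjusted p between 0.11 and 0.112. Without FK replicate 2 their values were 0.33 to 0.43, with none called. A replicate block gave 24 members higher and 4 lower (15.5% and 16.5% of all genes), the block with the GC and length correction gave 7 higher (4.81%), and leaving out FK replicate 1 gave 18 higher (6.37%). A difference between the effects of metformin with and without FK866 was therefore not called here, and whether it is called depends on these settings.

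Genes that work with the mitochondrial ribosome were described in the same fit, as counts of Met against DMSO. For every list that follows, the shares over all genes in that comparison were 25.9% lower and 24.9% higher. With libraries scaled to the same total they were 19.0% and 34.1%. Of 5 ribosomal proteins with other names, 4 fell and 0 rose, namely AURKAIP1 (log2 fold change -0.42), GADD45GIP1 (-0.31), PTCD3 (-0.26) and CHCHD1 (-0.21), and DAP3 stood at -0.09 without a call. With libraries scaled to the same total AURKAIP1 alone kept its call. Of 33 genes for ribosome assembly and mitochondrial rRNA processing 18 fell and 3 rose (median -0.27). Among them were RCC1L (-0.76), a large-subunit assembly factor, the tRNA processing enzyme ELAC2 (-0.63), the rRNA methyltransferases MRM2 and MRM3 (-0.60 each) and, rising, METTL15 (0.74), a methyltransferase of the small ribosomal RNA. With libraries scaled to the same total, 15 of these fell and 5 rose.

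Translation factors and related genes were split, with 7 of 19 lower and 7 higher (median -0.06). With the GC and length correction 10 were lower and 5 higher (median -0.20), against 32.5% and 24.8% of all genes. COA3 (-0.77), which acts in the making of cytochrome oxidase, and the elongation factor TSFM (-0.56) fell, whereas the initiation factors MTIF2 (0.76) and MTIF3 (0.54) rose. Of 20 mitochondrial aminoacyl-tRNA synthetases 6 fell (30%, near the 25.9% of all genes) and 1 rose (5%, against 24.9%). Those furthest down were SARS2 (-0.69), AARS2 (-0.64), EARS2 (-0.61) and LARS2 (-0.48). With the same total 4 fell and 2 rose. Of 9 regulators of mitochondrial biogenesis tested, PPRC1 (-0.65), NRF1 (-0.64), TFEB (-0.59) and ESRRA (-0.34) fell and MYC (0.38) rose, and with the same total 4 fell and 2 rose. None of 6 genes for mitochondrial transcription passed the test.

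The mitochondrially encoded protein genes showed 6 falls and 0 rises among 13 (median -0.31), with MT-ND3 (-1.23), MT-ND6 (-0.88), MT-ATP8 (-0.79) and MT-ATP6 (-0.73) the furthest. Of the 82 cytosolic ribosomal protein genes 15 fell and 4 rose (median -0.08), the furthest being RPS26 (-1.22), RPS10 (-0.57), RPS15 (-0.48) and RPL7L1 (-0.45). With libraries scaled to the same total, 10 of the 82 fell and 13 rose and their median was 0.04, so the direction of that median depends on the scaling. In Met+FK against FK, 35 of the 82 rose and 3 fell (median 0.17), where 33 of the 77 members fell and 2 rose. Over all genes 20.5% were higher and 21.7% lower. With FK against DMSO, 20 of the 82 had fallen and 0 had risen (median -0.16), against 9.84% and 11.3% of all genes. These counts of the 82 were not repeated without FK replicate 2.

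Several members share a start region with a gene on the opposite strand, with start sites within 1000 bases. Of 29 such pairs with a tested partner, both genes fell in 11 in Met against DMSO, and both moved in opposite directions in 1. The member alone was called in 8, the partner alone in 3 and neither in 6. Over all genes tested, 25.9% were lower and 24.9% higher in that comparison. Whether both genes fell more often than these shares and the members' own falls would give was not tested. Of the 11, 5 also overlap, including MRPS12 with SARS2 and MRPL51 with NCAPD2, so without a known strand setting their reads may be shared. MRPL46 and MRPS11 form such a pair within the ribosome, and both fell (log2 fold changes -0.40 and -0.76). MRPS12 and SARS2, which charges mitochondrial tRNA with serine, also both fell (-0.73 and -0.69). MRPL27 lies beside EME1 (-0.66 and -0.996), MRPL57 beside SKA3 (-0.43 and -0.87) and MRPL51 beside NCAPD2 (-0.51 and -0.85), a condensin subunit, and in each pair both fell. In other pairs the values differed in sign. MRPS27 fell (-0.38) while PTCD2, which it overlaps, rose (0.34), and MRPL54 fell (-0.41) while APBA3 had a value of 0.13 (adjusted p = 0.26). The pairs were chosen for their position, and those named after their values were seen.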

How the data were processed

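RNA of KP4 cells (3 libraries for each of 4 treatments) was prepared after ribosomal RNA removal and sequenced in pairs. The authors trimmed reads with cutadapt, used STAR to align these to hg38 and featureCounts for read pairs of each gene, and divided these by DESeq2 size factors. The deposited values are this signal, normalized counts per gene, from which read pairs were recovered (100% whole within 0.01 reads). The annotation and strand setting are not given in the sources used here. The labels do not say whether replicates were separate cultures, so p-values may measure technical spread only.

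Limma-trend (limma 3.58.1, R 4.3.3) was run on log2(normalized count + 1) as the main test, with all 12 libraries and 1 mean per treatment, adjusted by Benjamini-Hochberg over the 15376 genes whose mean reached 10. edgeR 4.0.16 (quasi-likelihood), DESeq2 1.42.0 on recovered read pairs, TMM, the same total, pseudocounts of 0.1 and 10, other filters, removal of a loess trend (span 0.3) on GC content and length, the replicate block and leaving out each library were alternatives. The script was tested on simulated data. Same-numbered libraries deviated together in FK and DMSO (r = 0.25, 0.42 and 0.22) and in Met+FK and Met (0.17, 0.20 and 0.23). That they are pairs there is read from the values alone. The main test did not pair them, and only the fits with the replicate block did. After removal of the trend the values for FK and DMSO fell to 0.14, 0.17 and 0.13, and those for Met+FK and Met to 0.16, 0.10 and 0.07. In the other comparisons at least 1 pair was under 0.1.

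Genes were named by rule: up to 12 members each way in Met against DMSO and up to 5 elsewhere with adjusted p under 0.05 and no overlap, by size; all past the rule with fold; the 3 smallest p where fewer than 3 passed and the 5 smallest of the interaction; the 5 highest and lowest per kb; MRPS36, MRPS30 and the MRPS18 paralogs; and up to 4 genes per other list. MRPL24 in Met against DMSO, MRPL54, MRPS10 in Met+FK against FK, MRM3, DAP3 and the neighbours were named after their values were seen. Members and lists were chosen with earlier results of these data known. GC content and lengths are from GENCODE 44, promoters from RefSeq (GRCh38.p14).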

Additional observations from a re-analysis of the deposited data

How the results depend on the processing

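With Met against DMSO, 49 members fell and 1 rose. Percents in parentheses here are the shares of all genes tested that were called in the same direction under the same setting. The rises numbered 2 with the GC and length trend removed (24.8%), 2 with that and the replicate block (26.9%) and 2 with the replicate block (30.3%). They numbered 4 with libraries scaled to the same total (34.1%) and 0 by the rule with fold (12.8%). By that rule 11 fell (10.2%), or 7 with the same total (1025 of 15376 genes) and 7 with the trend removed (1533 of 15324 genes). Leaving out 1 library gave 46 to 49 falls (21.7% to 26.5%) and 1 to 2 rises (20.6% to 25.3%). With FK against DMSO (14 falls and 3 rises), all genes with any value above 0 gave 3 and 0 (2.73% and 3.66%). DESeq2 gave 23 falls (11.9%), edgeR 8 (6.91%), TMM 8 (7.35%) and the trend removed 8 and 1 (6.83% and 4.25%). The libraries of the groups compared alone gave 0 and 0 (0.267% and 0.722%). The replicate block gave 36 and 11 (21.3% and 23.3%), and the rule with fold 0 and 0 (0.754% and 2.73%). Leaving out 1 library gave 0 to 36 falls (0.169% to 15.2%) and 0 to 5 rises (0.696% to 16.9%). With DMSO replicate 3 left out 1 fell and 0 rose (0.774% and 1.70%). With DMSO replicate 2 left out it was 7 and 5 (10.3% and 16.6%), and with FK replicate 3 left out 3 and 4 (5.19% and 8.66%). MRPL19 changed direction there, to -0.084 with the trend removed, with or without the block. With Met+FK against DMSO (46 and 2), the rule with fold gave 9 and 0 (11.3% and 13.7%). Leaving out 1 library there gave 38 to 45 falls (22.0% to 24.9%) and 1 to 2 rises (21.5% to 25.6%). With Met+FK against FK (33 and 2), the same total gave 20 falls (17.8%) and the rule with fold 2 and 0 (9.29% and 9.27%). The trend removed with the replicate block gave 5 rises (28.4%). Leaving out 1 library gave 22 to 34 falls (17.6% to 20.9%) and 1 to 2 rises (17.0% to 20.5%). With Met+FK against Met (0 and 0), the trend removed gave 1 rise (0.620%), that with the replicate block 2 (2.01%), and leaving out 1 library 0 (0.0130% to 0.0585%). In the interaction (0 and 0), DESeq2 gave 3 rises (1.71%) and the replicate block 24 rises and 4 falls (15.5% and 16.5%). The block with the trend removed gave 7 rises (4.81%). Leaving out 1 library gave 0 to 18 rises (0% to 6.37%) and 0 falls (0% to 5.63%). The cause of these shifts was not tested. The 13 members named in Met against DMSO kept direction and call in all 234 alternative values. Of 144 such values in FK against DMSO, 89 kept the call and direction. Depth leaves every member far above low counts (lowest mean 511).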
